A study of Mus musculus with 25 samples.

Results

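The genes described here encode the proteins of the cytosolic ribosome, and they were followed in the brain hemispheres of male mice across 5 ages. They were taken as the protein-coding genes whose symbol is that of a ribosomal protein (Rpl or Rps with its number, Rplp0 to Rplp2, or Rpsa) and whose mean over all libraries was at least 5 CPM (counts scaled to library size, after TMM normalization). The table holds 47729 genes. 83 of them carry such a symbol, 54 reached the limit and 29 did not. Of the 54 members, 34 belong to the large subunit and 20 to the small subunit. Both genes named as markers of the set, Rpl4 and Rps25, are members, at means of 360.0 and 30.0 CPM.

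A ribosome is built from a small subunit, which binds the mRNA and reads its codons, and a large subunit, which joins the amino acids and holds the exit tunnel of the new protein. Each ribosomal protein is present in a single copy in most ribosomes, apart from the stalk proteins P1 and P2, and its gene stands among many processed pseudogenes. The mRNAs of these proteins begin with a run of pyrimidines, the 5′ terminal oligopyrimidine (TOP) motif, through which mTOR signalling and Larp1 govern their translation together. In neurons these mRNAs are also carried into axons and dendrites.

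Total RNA from hemispheres of male C57BL/6 mice was sequenced at 2, 9, 15, 24 and 30 months of age, with 5 libraries per age and no treatment or allele named. The libraries were made with the TruSeq RNA kit, and whether it kept the strand is not given in the sources used here. The labels do not say that each library is a separate animal, so that p values measure the spread between libraries. Library totals ran from 17800113 to 31261121 counts, and the members took 0.235% to 0.322% of them. The neuronal markers Snap25, Syt1, Rbfox3 and Stmn2 summed to 3579 to 5840 CPM, and none of them was at 0 in any library. In replicates 2 to 5 of 30 months, genes rich in G and C read high: among protein-coding genes at 5 CPM or more, the median log2 ratio to the mean of the 20 libraries of 2 to 24 months was 1.12 to 2.03 larger in the 10% highest in GC content than in the 10% lowest, a difference called the GC gap here. For replicate 1 of 30 months it came to 0.13, and over the 20 libraries of 2 to 24 months it ran between -0.25 and 0.15. Comparisons among 2 to 24 months were therefore fitted in the 20 younger libraries, and those of 30 months in all 25. In these bulk samples, more cells of a type and more RNA per cell cannot be told apart.

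The starts of the mRNAs are shown first, because a pyrimidine run is what these genes are known to share. RefSeq (GRCm38.p6) gave a start for 42 of the 54 members, and the window read here runs from 20 bases before a start to 10 bases after it. Where a gene had several starts, the start whose window holds the longest pyrimidine run was used, for members and for all genes. The start was thus picked by the run that is reported, and it may not be the main start of the gene. A run of at least 8 pyrimidines (C or T, on the strand of the gene) lay in the window of 21 of these members (50%), against 14.6% of the windows of all 16522 protein-coding genes with a RefSeq start. The longest runs, 21 and 20 bases, were those of Rpl7a and Rpl34. The windows below are of members whose values are described later, with the longest pyrimidine run in capitals. They come from the plus strand at chr9:64173367-64173396 (Rpl4), chr9:44407694-44407723 (Rps25), chr9:120571497-120571526 (Rpl14), chr7:3704021-3704050 (Rps9), chr7:109519175-109519204 (Rpl27a), chr10:80292411-80292440 (Rps15) and chr5:121204481-121204510 (Rpl6), and from the minus strand at chr7:45128736-45128765 (Rpl13a) and chr3:130730328-130730357 (Rpl34).
Rpl34: ccgCCCCTTCCTTTTCCTCTTCCggggacg
Rpl4: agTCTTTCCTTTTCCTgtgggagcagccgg
Rpl14: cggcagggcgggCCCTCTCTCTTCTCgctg
Rpl27a: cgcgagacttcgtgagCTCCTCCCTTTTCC
Rps25: TCCTTTTTTTCCgacatcttagcgaggctg
Rps9: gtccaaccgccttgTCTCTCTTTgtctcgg
Rpl13a: gataagaaaccctgcgacaagaCCTCCTCC
Rps15: gCCCTCCCggcagagctcgcgataactgcg
Rpl6: gatcttggtcaCCTCCCgtcattgcttata
In Rpl13a and Rpl27a the run ends at the last base of the window, so it may go on beyond it. In Rps15 and Rpl6 the longest run had 7 and 6 bases. A run in a window is a description of the letters around an annotated start. The 21 members with a run of at least 8 and the 21 with a shorter one had median log2 fold changes of 0.10 and 0.09 at 24 against 2 months.

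Member levels spanned 5.24 to 360.0 CPM as means over 25 libraries, with a median of 25.3 CPM. Per kilobase of annotated exon, the highest levels were those of Rplp1 (187 CPM per kilobase), a protein of the stalk that recruits elongation factors, and Rpl4 (179), whose loop lines the exit tunnel. Next came Rps15 (175), a protein of the small subunit's head, and Rpl8 (136), which lies near the peptidyl transferase centre in the large subunit. The lowest were Rpl28 (2.97), Rpl10a (2.76), Rpl18 (2.41), Rpl13 (2.24) and Rpl21 (1.90), all of the large subunit. Levels per kilobase of annotated exon thus lay far apart in the deposited counts. That length joins the exons of all annotated transcripts of a gene and can exceed its main mRNA. It was 499 bases for Rplp1 and 2007 for Rpl4, whose main mRNAs have 499 and 1538 bases. For Rpl18 and Rpl21 it was 4043 and 3400 bases, with main mRNAs of 679 and 899 bases. The part of annotated length in these ranks was not tested. Next to the limit, Rpl36a and Rpl37a were inside it at 5.25 and 5.24 CPM, and Rpl5, Rpl9 and Rps27l outside it at 4.75, 4.17 and 4.13 CPM. Rpsa, the laminin receptor precursor of the small subunit, stood at 1.24 CPM and is not a member.

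Among members, the levels went with how much of an mRNA is found in no other gene. A window of 50 bases was called unique when it occurs in the transcripts of no other gene of the GENCODE annotation. The share of unique windows had a median of 50.1% among members, with a range of 13.3% to 100%, and a median of 21.5% among the 29 genes below the limit. The 27 members with at least 50% unique windows had a median of 46.0 CPM, and the 27 others a median of 17.9 CPM. Among the genes below the limit, the median was 1.072 CPM in the 7 with at least 50% unique windows and 1.76 CPM in the 22 others. Those 7 include Rpl3l, Rpl39l and Rpl10l, which had few counts or none (0.52, 0.12 and 0 CPM). The rest of the 7 were Rps27l, Rpl31, Rpl12 and Rps29, at 4.13, 3.93, 3.70 and 1.072 CPM, so the lower median turned on these paralogs with few counts. Across the 82 genes with a level above 0, Pearson's r between the log2 level and the share was 0.43 and Spearman's rho 0.47. These genes share libraries and pseudogene families, and how reads that map to several places were counted is not given in the sources used here. 265 pseudogenes carry a ribosomal protein symbol in the table, and 6 of them reached 1 CPM, the highest of them Rps4l at 11.1 CPM. A level below is therefore that of the reads assigned to a gene, and comparisons are made within a gene across ages. In addition, 16 members overlap another annotated gene, 14 of them one on the opposite strand, so that reads of the pair may be mixed. Rps25, which overlaps Trappc4 and Ccdc84, is among these.

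**Figure D1:**
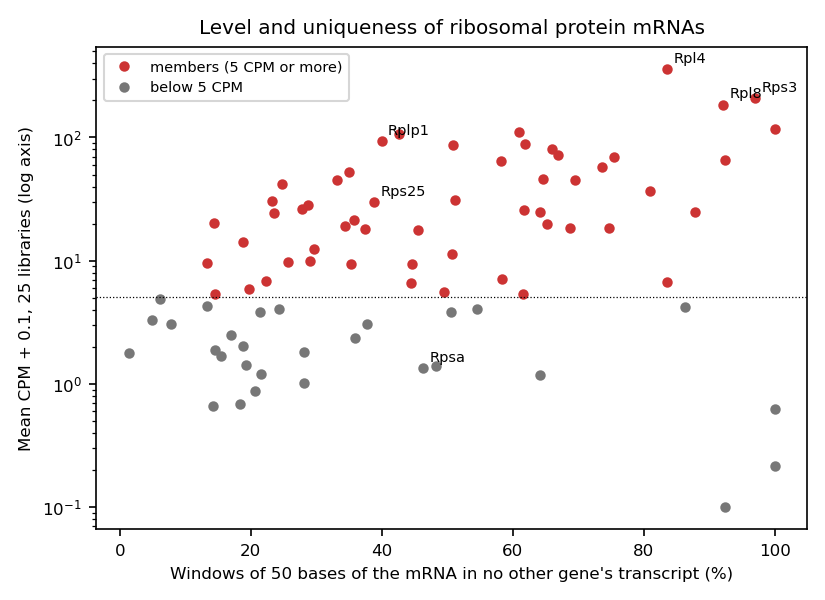
Mean level over 25 libraries (CPM + 0.1, log axis) against the percent of 50 base windows of the mRNA that occur in no other gene's transcripts, for members (red) and for genes with a matching symbol below 5 CPM (grey, dotted line at the limit). Among members the levels run higher toward the right, from a median of 17.9 CPM in members under 50% to 46.0 CPM in the others.

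Summed over the 54 members, the level was 2419 to 2611 CPM at 2 months, 2417 to 2542 at 9 months, 2439 to 2594 at 15 months, 2613 to 2846 at 24 months and 2418 to 3077 at 30 months. The 5 libraries of 24 months were all higher than the 15 of the younger ages, although the lowest of them, replicate 2, exceeded replicate 1 of 2 months by little. At 30 months 4 libraries lay at 2418 to 2507 CPM and replicate 5 at 3077 CPM. Set against the 2 month mean gene by gene, the median member was 0.03 to 0.16 higher (log2) in the libraries of 24 months, and 49 of the 54 members were above that mean in replicate 3. The large subunit genes summed to 1533 to 1662 CPM at 24 months, against 1389 to 1494 at 2 months, and the small subunit genes to 1080 to 1185 CPM, against 1030 to 1117.

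**Figure D2:**
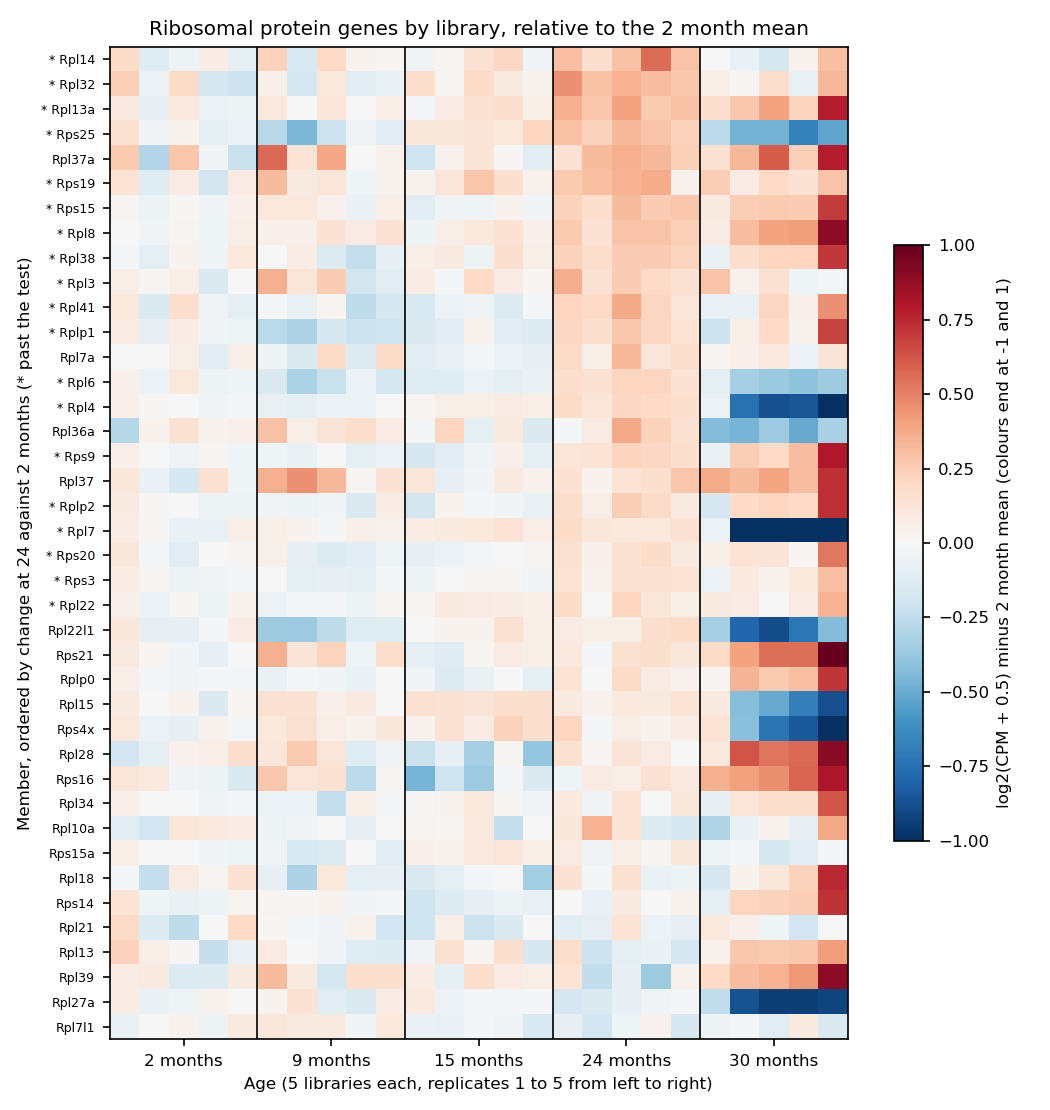
40 of the 54 members, those named in the text (down the page, ordered by their change at 24 against 2 months) in the 25 libraries (across, by age from 2 to 30 months), as log2(CPM + 0.5) minus the mean of the 2 month libraries. Most of the 40 members shown are red in the 24 month libraries, and replicates 2 to 5 of 30 months split into members that are red and members that are blue. Many of the 40 were named because they passed a test.

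At 24 against 2 months, 19 of the 54 members rose and 0 fell, past an adjusted p of 0.05 in edgeR's quasi-likelihood test (Benjamini-Hochberg, all 17472 tested genes). Of all those genes 11% rose and 11.7% fell. At an unadjusted p under 0.05, 27 members were higher and 1 was lower, and DESeq2 also gave 19 higher and 0 lower after adjustment. The median member differed by 0.10 (log2), the median gene by 0.00, and 43 of the 54 members were above 0. The rises were small, from 0.10 to 0.32. Members of both subunits were among them, 13 of 34 large subunit genes (38.2%) and 6 of 20 small subunit genes (30.0%). Of the 20 members at 40 CPM or more, 13 rose (65.0%), against 12.3% of all 5394 genes at that level. Among members with at least 50% unique windows 11 of 27 rose, and among the others 8 of 27. In 13 members no library of 24 months overlapped those of 2 months in the upward direction, which held for 8.21% of all genes.

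Rpl13a, a large subunit protein that in human cells also acts in an interferon-induced silencing complex once released, had the smallest p. It stood at 121, 114, 125, 113 and 116 CPM at 24 months, against 101, 89.1, 101, 91.0 and 91.0 CPM at 2 months. Every library of 24 months was above every library of 2 months. The means were 118 ± 5.05 and 94.7 ± 5.96 CPM (SD, n = 5 each), a log2 fold change of 0.30 ± 0.04 (SE, edgeR adjusted p = 1.42e-06). Rpl8 stood at 195, 180.0, 198, 198 and 192 CPM at 24 months, against 162, 159, 166, 158 and 169 CPM at 2 months, again with no overlap. Its log2 fold change was 0.23 ± 0.03 (SE, edgeR adjusted p = 5.62e-06). Rpl4, the most counted member, had 432, 412, 436, 434 and 426 CPM at 24 months, against 392, 381, 378, 369 and 374 CPM at 2 months. The lowest library of 24 months lay above the highest of 2 months, and the log2 fold change was 0.16 ± 0.02 (SE, edgeR adjusted p = 1.44e-05).

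Rplp1, whose protein pairs with that of Rplp2 on the stalk, stood at 106, 103, 111, 106 and 101 CPM at 24 months, against 97.1, 86.5, 97.0, 89.9 and 89.1 CPM at 2 months. The groups did not overlap, and the log2 fold change was 0.18 ± 0.04 (SE, edgeR adjusted p = 6.07e-04). Its partner Rplp2 averaged 55.5 ± 2.98 CPM at 24 months and 49.9 ± 1.97 CPM at 2 months (log2 fold change 0.14, edgeR adjusted p = 0.0153). Rplp0, the base of the stalk, had a log2 fold change of 0.08 that did not pass the test (edgeR adjusted p = 0.0912). The largest fold changes among the called members were those of Rpl14 (0.32, edgeR adjusted p = 0.00330) and Rpl32 (0.31, edgeR adjusted p = 0.00612), both of the large subunit. The other large subunit members that rose were Rpl3, Rpl6, Rpl7, Rpl22, Rpl38 and Rpl41, at log2 fold changes of 0.10 (Rpl22) to 0.22 (Rpl38).

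In the small subunit, Rps15 stood at 119, 114, 126, 121 and 122 CPM at 24 months, against 103, 97.5, 102, 98.4 and 105 CPM at 2 months. All 5 libraries of 24 months were higher, with a log2 fold change of 0.24 ± 0.03 (SE, edgeR adjusted p = 5.19e-06). Rps25, known for its part in translation from internal ribosome entry sites, stood at 37.7, 36.1, 38.6, 37.3 and 36.0 CPM at 24 months, against 34.0, 29.8, 31.5, 28.8 and 29.3 CPM at 2 months. The groups did not overlap (log2 fold change 0.26 ± 0.05 SE, edgeR adjusted p = 8.43e-04). Rps9, which lines the entry channel of the mRNA, averaged 76.9 ± 2.37 CPM at 24 months and 68.3 ± 1.84 CPM at 2 months (SD, n = 5 each, log2 fold change 0.16, edgeR adjusted p = 9.74e-04). Rps3, Rps19 and Rps20 rose as well, by log2 fold changes of 0.11, 0.25 and 0.11. RPS19 is the gene most often mutated in Diamond-Blackfan anaemia in humans.

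**Figure D3:**
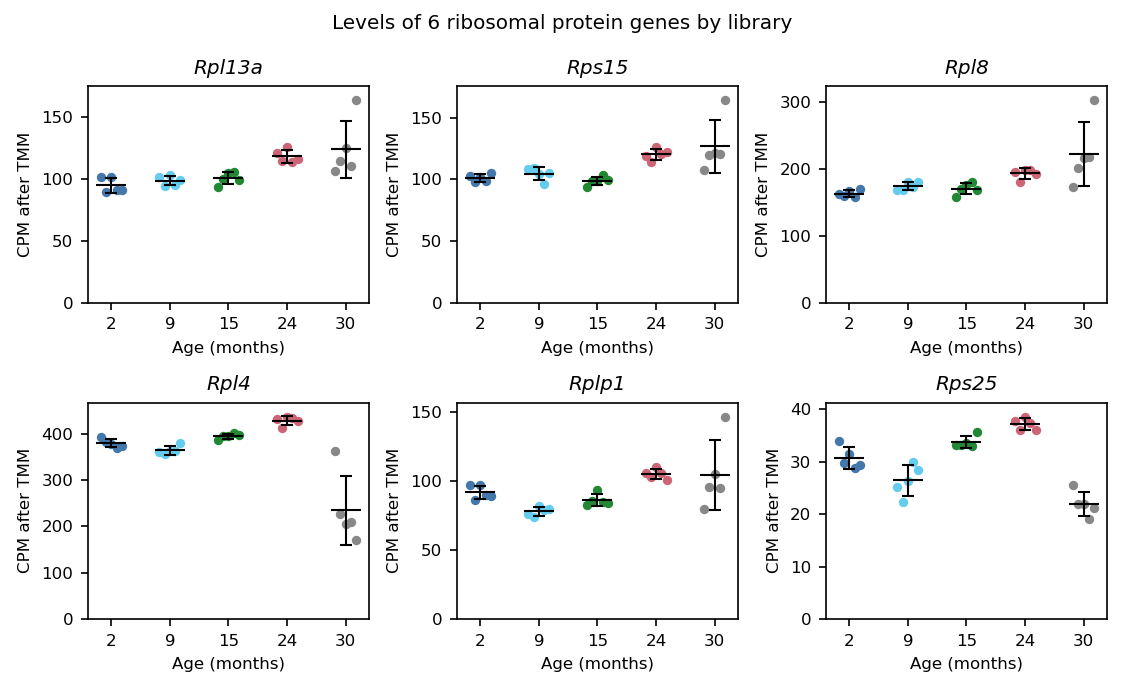
CPM after TMM scaling of 6 members at 2, 9, 15, 24 and 30 months: each point is a library, the long dash and bars are the mean and SD of 5 libraries, and the vertical axes start at 0. The 24 month points of all 6 lie above their 2 month points, and at 30 months Rpl4 and Rps25 are low in replicates 2 to 5 while replicate 5 is the highest for the other 4.

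How many members passed at 24 against 2 months turned on the libraries and terms in the fit. With all 25 libraries in 1 fit, 5 members rose and 0 fell (13 higher and 0 lower at an unadjusted p under 0.05, edgeR), against 3.38% and 1.85% of all genes. The median member then differed by 0.09. Rpl13a stayed past the test there (edgeR adjusted p = 0.0256), while Rps15 (0.0533), Rpl8 (0.131), Rplp1 (0.312) and Rpl4 (0.466) did not. With RLE scaling the same count of 19 rose and with total counts 20, and with a correction for GC content 20, of which 18 were among the 19.

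Markers of other cells moved at 24 months too. Of the 6 microglial markers 4 rose, among them Cx3cr1, Tmem119 and C1qa, and 2 did not pass the test (edgeR); the list summed to 354 to 394 CPM at 24 months, against 312 to 366 CPM at 2 months, and none was at 0. With their mean log2 level as a covariate, 3 members rose and 1 fell, against 2.33% and 2.38% of all genes, and the median member differed by 0.03. Alb, a defining marker of liver, stood at 38.8 to 172 CPM in the 24 month libraries, against 0 to 128 CPM at 2 months. The liver list without Ttr summed to 49.3 to 224 CPM, against 0.815 to 167 CPM. The top of both 2 month ranges was replicate 3. The other 2 month libraries lay at 0 to 5.56 CPM for Alb and 0.815 to 8.45 CPM for the list. Of the 7 liver markers 0 passed the test in edgeR or DESeq2. At an unadjusted p under 0.05 in edgeR 2 were higher and 0 lower. With the liver markers as a covariate 11 members rose and 0 fell (22 and 0 at an unadjusted p under 0.05, edgeR), against 5.90% and 6.15% of all genes. None of the 5 red blood cell and 5 choroid plexus markers passed the test in edgeR or DESeq2, with 0 at an unadjusted p under 0.05 in either list. The choroid plexus list nevertheless summed to 601 to 720 CPM at 24 months, against 473 to 537 CPM at 2 months, without overlap, and none of its markers was at 0. Most of that sum was Ttr, at 548 to 650 CPM at 24 months, against 420 to 476 CPM at 2 months (log2 fold change 0.38, edgeR adjusted p = 0.588, in a fit that includes a 9 month library whose list sums to 36.0 CPM). The red blood cell list summed to 46.6 to 166 CPM at 24 months, against 39.95 to 68.9 CPM at 2 months. Of the rest, 1 of 4 neuronal markers fell, and 1 of 3 oligodendrocyte markers rose and 1 fell. 1 of 4 endothelial markers rose, 2 of 4 meningeal fibroblast markers fell, and the 1 lymphocyte marker with enough counts rose. The 3 astrocyte markers did not pass in edgeR, with 1 higher and 1 lower at an unadjusted p under 0.05, and DESeq2 called 1 lower. The part of these other lists in the result was not tested.

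The earlier ages held small changes in both directions. At 9 against 2 months 3 members rose (5.56%) and 4 fell (7.41%), where 7.92% of all genes rose and 6.96% fell. The median member differed by 0.01. With total counts in place of TMM the split was 2 higher and 7 lower. The strongest fall was that of Rplp1, at 76.0, 74.0, 82.1, 79.2 and 79.9 CPM at 9 months, against 97.1, 86.5, 97.0, 89.9 and 89.1 CPM at 2 months. All libraries of 9 months were lower than those of 2 months (log2 fold change -0.24 ± 0.04 SE, edgeR adjusted p = 6.14e-05). Rps25 stood at 25.2, 22.3, 26.4, 29.9 and 28.4 CPM at 9 months, against the 28.8 to 34.0 CPM of 2 months, so that 1 of its 9 month libraries fell inside that range (log2 fold change -0.23, edgeR adjusted p = 0.00595). Rpl22l1, a paralog of Rpl22, and Rpl6 fell too, by log2 fold changes of -0.26 and -0.20 (edgeR adjusted p = 0.00227 and 0.00421). Among those that rose were Rpl37 (0.28) and Rps21 (0.17), with overlapping libraries. Rps21 lost its call (edgeR adjusted p of 0.0538 to 0.108) when replicate 2, 3, 4 or 5 of 2 months or replicate 1, 3 or 5 of 9 months was left out, with log2 fold changes of 0.12 to 0.18.

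At 15 against 2 months 1 member rose and 1 fell (1.85% each), below the 6.10% and 6.95% of all genes. Rpl15, a large subunit protein, stood at 46.8, 46.7, 46.1, 47.5 and 47.2 CPM at 15 months, against 44.9, 42.1, 43.2, 38.1 and 42.7 CPM at 2 months. The groups did not overlap (log2 fold change 0.14 ± 0.04 SE, edgeR adjusted p = 0.0123), but the GC correction ended the call (0.10, edgeR adjusted p = 0.106). Rps14, which in humans lies in the region lost in the 5q- syndrome, averaged 78.9 ± 3.11 CPM at 15 months and 85.0 ± 5.03 CPM at 2 months (log2 fold change -0.11, edgeR adjusted p = 0.0388). It too lost its call with the GC correction (-0.05, edgeR adjusted p = 0.388). Leaving out replicate 1 or 5 of 2 months or replicate 1, 2 or 3 of 15 months did the same, with log2 fold changes of -0.08 to -0.11 and edgeR adjusted p of 0.0626 to 0.138. The count of calls was 2 with all libraries, 5 without replicate 1 of 2 months and 4 without replicate 4 of 15 months. It was 1 without replicate 5 of 2 months and without replicate 1 or 2 of 15 months. With the GC correction 2 other members rose and 0 fell, against 4.22% and 3.79% of all genes. They were Rpl8 (0.14, edgeR adjusted p = 0.00300) and Rpl13a (0.11, edgeR adjusted p = 0.0405), neither of which passed without it.

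At 15 against 9 months 5 members rose (9.26%) and 6 fell (11.1%), where 4.45% of all genes rose and 6.45% fell. Total counts in place of TMM gave 6 higher and 3 lower. Rps25 stood at 33.1, 33.1, 33.5, 33.0 and 35.6 CPM at 15 months, against 25.2, 22.3, 26.4, 29.9 and 28.4 CPM at 9 months. The groups did not overlap, with a log2 fold change of 0.36 ± 0.06 (SE, edgeR adjusted p = 1.83e-04). Rpl22l1 stood at 20.7, 21.1, 21.2, 23.1 and 21.7 CPM at 15 months, against 16.1, 16.0, 17.3, 19.0 and 18.9 CPM at 9 months, also without overlap (log2 fold change 0.32, edgeR adjusted p = 5.51e-04). Rpl4 (0.12), Rps15a (0.16) and Rplp1 (0.15) rose, and among those that fell were Rpl37 (-0.25), Rps21 (-0.19), Rps16 (-0.32), Rpl7l1 (-0.14) and Rps14 (-0.11). Rplp1, Rps25 and Rpl22l1 were lower at 9 against 2 months and higher at 15 against 9 months, and Rpl37 and Rps21 were the other way round; both comparisons use the same 9 month libraries. The count of calls was 11 with all libraries, 6 without replicate 1, 2 or 3 of 9 months and 7 without replicate 2 or 3 of 15 months. Rplp1, Rpl37, Rps21, Rps16 and Rpl7l1 each lost the call without at least 1 library, with edgeR adjusted p up to 0.102. Rplp1 did so without replicate 2 of 9 months (0.12) or replicate 3 of 15 months (0.11). Rpl37 did so without replicate 1, 2 or 3 of 9 months or replicate 2 or 3 of 15 months (-0.20 to -0.24). Rps21 did so without replicate 1 or 3 of 9 months or replicate 1 or 2 of 15 months (-0.14 to -0.18). Rps16 did so without replicate 1, 2 or 3 of 9 months or replicate 1 or 3 of 15 months (-0.26 to -0.31). Rpl7l1 did so without replicate 1, 2, 3 or 5 of 9 months or replicate 2, 4 or 5 of 15 months (-0.13 to -0.15).

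At 24 against 15 months 19 members rose and 0 fell in edgeR, against 11.9% and 12.2% of all genes, and the median member differed by 0.12. At an unadjusted p under 0.05, 24 were higher and 2 lower, and DESeq2 gave 19 and 0 after adjustment. Rps15 averaged 120.3 ± 4.56 CPM at 24 months and 98.8 ± 3.46 CPM at 15 months, a log2 fold change of 0.27 ± 0.03 (SE, edgeR adjusted p = 5.04e-06). Rplp1 (0.28), Rps9 (0.23), Rpl6 (0.27) and Rpl13a (0.22) followed by p, each without overlap between the ages. In 17 members no library of 24 months overlapped those of 15 months in the upward direction, against 8.84% of all genes. The comparison shares its 24 month libraries with that against 2 months. GC content moved with this comparison: the GC gap defined above was 0.05 to 0.15 in the libraries of 24 months, against -0.25 to -0.09 in those of 15 months. Across the 54 members, which share libraries, r between the log2 fold change and GC content was 0.51, and 0.04 with the GC correction. A weaker relation is built into that correction, which is fitted on GC content over protein-coding genes. With that correction 13 members rose and 1 fell, against 5.57% and 6.42% of all genes, and the median was 0.09. With all 25 libraries in 1 fit 1 member rose, Rpl6, and 0 fell (16 and 0 at an unadjusted p under 0.05, edgeR), against 0.882% and 0.247% of all genes. With the microglial covariate 8 rose and 2 fell, against 6.70% and 7.19% of all genes.

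A linear trend from 2 to 24 months, expressed as the log2 change over that span, rose in 14 members and fell in 0 (edgeR), against 8.44% and 8.32% of all genes. At an unadjusted p under 0.05, 24 were higher and 2 lower, and DESeq2 gave 15 and 1 after adjustment. Rpl13a (0.30 ± 0.04 SE, edgeR adjusted p = 3.75e-05), Rpl8 (0.21), Rpl4 (0.19), Rpl32 (0.34) and Rps15 (0.21) had the smallest p. A straight line is a summary, since Rpl13a averaged 94.7 ± 5.96 CPM at 2 months, 98.6 at 9 months, 101 ± 4.88 at 15 months and 118 ± 5.05 at 24 months. Rps25 averaged 30.7, 26.4, 33.7 and 37.1 CPM at the same ages. With the microglial covariate 0 members passed (5 higher and 5 lower at an unadjusted p under 0.05, edgeR), against 1.17% and 0.75% of all genes. With the liver covariate 5 rose and 0 fell, against 3.25% and 2.44% of all genes, and with all 25 libraries 6 rose and 0 fell, against 4.22% and 2.52%.

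**Figure D4:**
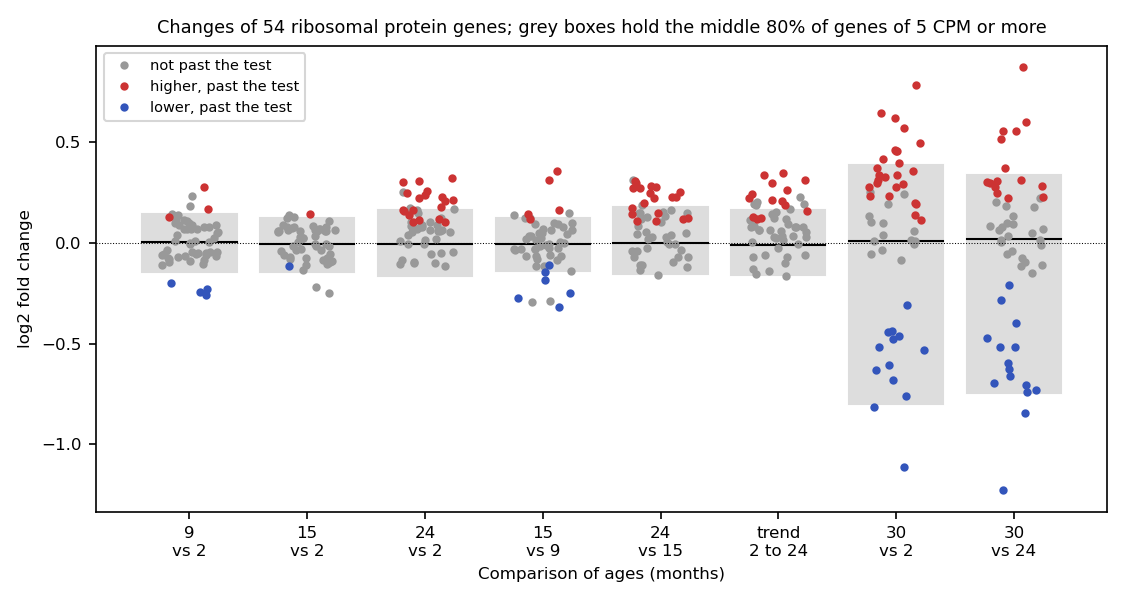
Log2 fold changes (older relative to younger, and the change over 2 to 24 months for the trend) of the 54 members in each comparison, red or blue where they passed the test, with the median (line) and middle 80% (grey box) of all genes at 5 CPM or more. The members shift upward in 24 against 2 and 24 against 15 months, with 19 red and no blue points each, and lie on both sides of 0 in the comparisons of 30 months.

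At 30 months members went both ways. Against 2 months 26 members were higher and 13 lower past the test (edgeR), with 28.5% and 29.5% of all genes, and the median member differed by 0.17. Among those that rose, Rps16, a small subunit protein, stood at 8.31, 8.65, 9.01, 9.84 and 11.6 CPM at 30 months, against 6.996, 6.88, 6.28, 6.17 and 5.72 CPM at 2 months. All 30 month libraries were higher than all 2 month libraries (log2 fold change 0.57 ± 0.10 SE, edgeR adjusted p = 7.39e-05). Rps21 rose by a log2 fold change of 0.65 (edgeR adjusted p = 9.44e-05). Rpl27a stood at 22.9, 14.7, 13.98, 13.9 and 14.2 CPM at 30 months, against 28.7, 26.0, 26.4, 27.8 and 27.3 CPM at 2 months. No library overlapped, and replicate 1 lay between the 2 month libraries and replicates 2 to 5 (log2 fold change -0.76 ± 0.10 SE, edgeR adjusted p = 2.94e-06). Rpl22l1 (-0.63), Rps25 (-0.48), Rpl4 (-0.68) and Rpl7 (-1.11) were the next by p among those that fell.

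These values turned largely on replicates 2 to 5 of 30 months. Rpl7 stood at 46.9, 19.4, 17.1, 16.5 and 12.4 CPM at 30 months, against 51.5, 49.4, 46.7, 46.3 and 50.9 CPM at 2 months. Its replicate 1 lay inside the range of the 2 month libraries, and the other 4 were far lower. Rpl4 stood at 363, 226, 206, 209 and 169.9 CPM at 30 months, again with replicate 1 near the 369 to 392 CPM of 2 months. Without replicates 2 to 5, which leaves 1 library of 30 months that is assumed to vary like the other ages, 2 members rose, Rpl37 among them, and 2 fell (Rpl22l1 and Rplp1), against 5.19% and 3.34% of all genes. The log2 fold change of Rpl7 was then -0.07 (edgeR adjusted p = 0.583), that of Rpl4 -0.07 (0.393) and that of Rps25 -0.28 (0.0821). Rps25 stood at 25.5, 21.9, 21.9, 19.0 and 21.1 CPM at 30 months, below all libraries of 2 months in each of the 5. Rps16, Rps21 and Rpl27a also missed the threshold without those 4 libraries, at log2 fold changes of 0.37, 0.19 and -0.25.

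The corrections changed which members passed. Across members, r between the log2 fold change at 30 against 2 months and GC content was 0.49, and -0.19 with the GC correction. The loss of a rise with GC content is again built into that correction. With that correction 20 members rose and 11 fell, against 25.7% and 20.2% of all genes. The median member then differed by 0.04, and 4 members past the uncorrected test turned direction. With GC content and length both corrected it was 17 and 17, against 25.3% and 21% of all genes. The median member was then -0.05, and 7 members past the uncorrected test turned direction. With replicate 1 of 30 months alone the median member differed by 0.003. 15 members rose and 10 fell in the uncorrected and both corrected fits. The share of all genes that did so in these fits was not counted, so these counts cannot be set against it. Rpl37, a large subunit protein, was the only member that rose in these 3 fits and with replicate 1 alone. It stood at 20.8, 19.97, 21.2, 19.9 and 26.8 CPM at 30 months, against 17.3, 15.2, 14.2, 17.8 and 15.5 CPM at 2 months, and the groups did not overlap. Its log2 fold change was 0.46 ± 0.09 (SE, edgeR adjusted p = 1.42e-04), 0.29 with the GC correction, 0.18 with GC content and length corrected and 0.38 with replicate 1 alone (edgeR adjusted p = 0.0424). No member fell in all 4 fits, whose single fits gave 13, 11, 17 and 2 falls. Rpl22l1 lost its call with the GC correction (-0.08, edgeR adjusted p = 0.549). Rps20, 0.20 without correction, came to 1.01 with the GC correction, and its longest annotated transcript has a GC content of 41.3%. The main annotated mRNA of Rps20 has 3706 bases, with a coding sequence of 357 bases. Whether its reads come from so long a transcript was not tested, and the corrected value depends on that choice.

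**Figure D5:**
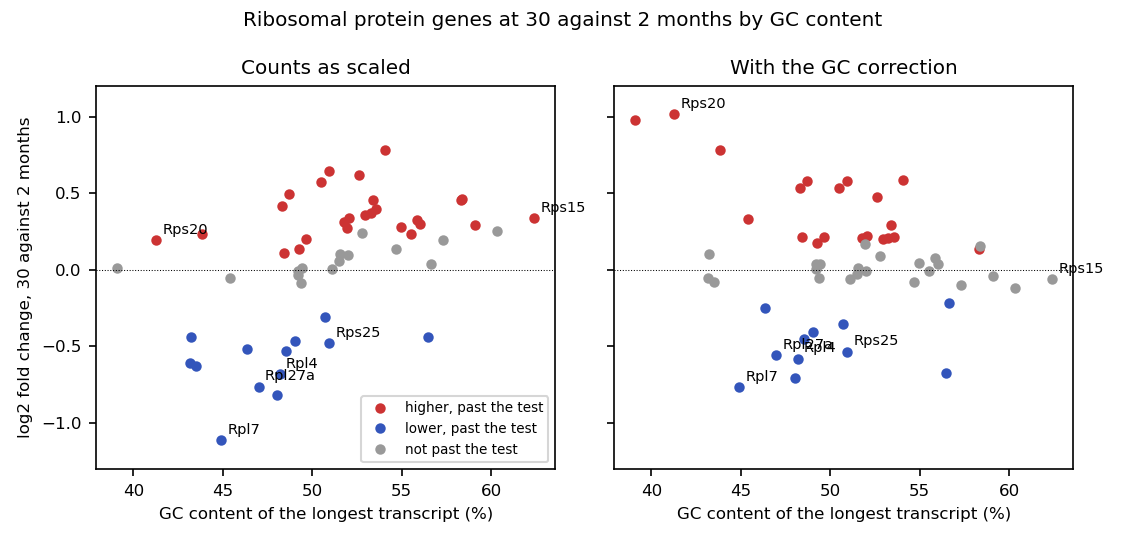
Log2 fold change at 30 against 2 months of each member against the GC content of its longest transcript, without (left) and with (right) the GC correction, red or blue where past the test. On the left the points climb with GC content (r of 0.49), and on the right they do not (r of -0.19), with Rpl7, Rpl4, Rps25 and Rpl27a low in both. The correction is fitted on GC content, so a weaker relation on the right is built into it.

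Against 24 months, 15 members were higher and 15 lower at 30 months, with 25.5% and 29.0% of all genes. Rps25 (-0.74), Rpl22l1 (-0.73), Rpl6 (-0.47), Rpl4 (-0.84) and Rpl27a (-0.66) fell with the smallest p, and Rps16 (0.52), Rpl39 (0.60) and Rpl28 (0.55) were among the 5 that rose with the smallest p (edgeR adjusted p of 1.53e-07 to 4.39e-04). With replicate 1 of 30 months alone, Rpl6, Rpl27a, Rps16, Rpl39 and Rpl28 did not pass (edgeR adjusted p of 0.0609 to 0.947). With the GC correction Rpl22l1 lost its call (-0.21, edgeR adjusted p = 0.0785). For Rps25 all 30 month libraries, replicate 1 at 25.5 CPM included, were below the 36.0 to 38.6 CPM of 24 months. Its fall was past the test with replicate 1 alone too (log2 fold change -0.54, edgeR adjusted p = 6.71e-04). With that library alone 1 member rose and 8 fell, against 2.76% and 1.09% of all genes, and the median member was -0.11. With the GC correction 14 rose and 19 fell, against 22.8% and 18.4% of all genes, and with GC content and length 13 and 24, against 22.7% and 19.6%. The count of rises was thus near the share of all genes in both corrected fits, while the count of falls lay above it.

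Some members have a close copy elsewhere in the genome, and the ratio within a library does not depend on scaling between libraries. 4 pairs had both genes at 5 CPM or more: Rpl22l1 to Rpl22, Rpl7l1 to Rpl7, Rps4l to Rps4x and Rpl36al to Rpl36a. Each was compared at 9, 15, 24 and 30 with 2 months by a two-sided exact permutation test on log2 ratios of CPM plus 0.5, which makes 16 tests. 0 passed an adjusted p of 0.05 and 7 had an unadjusted p under 0.05. The smallest p that 5 against 5 libraries allow is 0.00794, and the smallest adjusted p in the exact tests was 0.0762. Rpl22 is known to repress Rpl22l1 in mouse. The log2 ratio of Rpl22l1 to Rpl22 averaged -1.89 ± 0.11 at 9 months and -1.67 ± 0.06 at 2 months (SD, n = 5 each, exact p = 0.0159, adjusted 0.0762). At 30 months it averaged -2.43 ± 0.19, lower in each library than in those of 2 months (exact p = 0.00794, adjusted 0.0762). The 30 month libraries carry the GC gap described above, and the longest transcripts of Rpl22l1 and Rpl22 have GC contents of 43.5% and 49.2%. Rpl22l1 at 30 against 2 months came to -0.08 with the GC correction, against -0.63 without it, and the part of GC content in the ratio was not tested. The log2 ratio of Rpl7l1 to Rpl7 averaged -1.16 ± 0.11 at 24 months and -0.94 ± 0.09 at 2 months (SD, n = 5 each, exact p = 0.0159, adjusted 0.0762). At 30 months the ratio of Rpl7l1 to Rpl7 averaged 0.28 ± 0.70 (SD, n = 5, exact p = 0.0317, adjusted 0.0847). Without replicate 1 of 30 months 3 ratios passed. That library enters only the comparisons of 30 with 2 months, and replicates 2 to 5, which are left there, carry the GC gap.

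Other genes of translation were read from lists. Of the 20 elongation factors and other mRNAs known to carry a TOP motif, 6 rose at 24 against 2 months and 0 fell (edgeR). Of all genes 11% rose and 11.7% fell. At an unadjusted p under 0.05 in edgeR the list had 10 higher and 0 lower, and by DESeq2 7 and 0. Vim, an intermediate filament protein, averaged 60.5 ± 9.49 CPM at 24 months and 43.5 ± 3.88 CPM at 2 months (log2 fold change 0.47, edgeR adjusted p = 5.00e-04). Eef1d, a subunit of the exchange factor of elongation, averaged 54.02 ± 1.89 CPM at 24 months and 47.5 ± 0.882 CPM at 2 months (0.17, edgeR adjusted p = 7.30e-04), and the initiation factor Eif4b averaged 235 ± 7.91 CPM at 24 months and 210.2 ± 9.05 CPM at 2 months (0.15, edgeR adjusted p = 7.46e-04). The list had a median of 0.06, against 0.00 over all genes.

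The counts of the lists below stand against the 11% of all genes that rose and the 11.7% that fell at 24 against 2 months. The falls among initiation factors and biogenesis genes are near or below that share. Of 28 further initiation factors 0 rose and 4 fell (3 and 5 at an unadjusted p under 0.05, edgeR; 0 and 5 by DESeq2). Eif4a1, an RNA helicase, averaged 24.7 ± 0.975 CPM at 24 months and 29.2 ± 1.37 CPM at 2 months (log2 fold change -0.25, edgeR adjusted p = 6.98e-05), and Eif4g2 and Eif2b4 fell by 0.11 and 0.14 on the log2 scale. Of 45 ribosome biogenesis genes Utp3 (0.15) and Fbl (0.31), the methyltransferase of ribosomal RNA, rose, and Rrp12 (-0.17), Heatr1 (-0.14), Utp20 (-0.15) and Nop56 (-0.10) fell. Of 19 genes that govern TOP mRNAs 0 rose and 3 fell (1 and 4 at an unadjusted p under 0.05, edgeR; 0 and 3 by DESeq2), namely Larp4 (-0.18), Eif4ebp2 (-0.18) and the S6 kinase Rps6kb1 (-0.10). Of 8 snoRNA host genes with TOP starts Gas5 (0.18) and Snhg12 (0.22) rose and 0 fell (3 and 0 at an unadjusted p under 0.05, edgeR; 2 and 0 by DESeq2). Of 11 genes of ribosome stalling and quality control 0 rose and 3 fell, Ltn1 (-0.11), Ascc3 (-0.16) and Gtpbp2 (-0.12), with 1 and 5 at an unadjusted p under 0.05 in edgeR and 0 and 3 by DESeq2. Among 4 genes of or beside the ribosome outside the symbol rule Rpl36al rose (0.28, edgeR adjusted p = 0.0334) and 0 fell (3 and 0 at an unadjusted p under 0.05, edgeR; 1 and 0 by DESeq2). Rack1, a scaffold on the small subunit, had 0.07 (edgeR adjusted p = 0.107). At 30 against 2 months the initiation factors stood at 7 higher and 14 lower and the biogenesis genes (45 tested) at 6 and 24, where 28.5% of all genes rose and 29.5% fell, in libraries with the GC gap described above.

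Members did not all move together among the 20 younger libraries. Pearson's r of a member with the mean of the other members had a median of 0.50 and ran from -0.28 to 0.88. It was above 0.5 for 27 members and below 0 for 7, and highest for Rpl13a (0.88), Rps15 (0.87) and Rps3 (0.86). The 7 below 0 had mean levels of 6.63 (Rpl39) to 28.0 CPM (Rpl26). Rpl13a, Rps15 and Rps3 had 107, 110 and 209 CPM. The part of level in r was not tested. Among 11439 protein-coding genes that are no members, those most like the mean log2 level of the members over these 20 libraries were Apoe (0.89), Bok (0.89), Ctsb (0.88), Rack1 (0.88) and Thnsl2 (0.88). The libraries are grouped by age, so these correlations also carry every other difference between the ages.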

How the data were processed

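Read counts per Ensembl gene were deposited for 25 libraries. Per the submitters' processing notes, the authors used CASAVA 1.7, STAR 2.4.1d, featureCounts 1.4.6-p4 and GRCm38; the annotation release, the strand setting and the treatment of reads that map to several places are not given in the sources used here. The deposited RPKM table was not used. Symbols and biotypes came from GENCODE M21, which held 47310 of the 47729 gene IDs, and mRNA starts from RefSeq (GRCm38.p6).

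Counts were scaled by TMM, filtered by filterByExpr and tested with edgeR 4.0.16 (quasi-likelihood, robust dispersions, R 4.3.3), with Benjamini-Hochberg adjustment over all genes tested and a threshold of 0.05. Comparisons among 2 to 24 months used 20 libraries and 17472 genes, and those of 30 months 25 libraries and 17799 genes. The trend had age in months as a number. Named for each comparison were up to 5 members in each direction with the smallest p among those past the test, beside Rpl4, Rps25, the stalk proteins, the members highest and lowest per length or next to the limit, and up to 3 genes of each other list by smallest p. Some genes picked by this rule are not reported here. Other genes named were chosen after their values were seen. The members and lists were chosen with earlier results of these data known. The GC correction subtracted a spline of the log2 ratios on GC content (5 degrees of freedom) per library. GC content was that of the longest annotated transcript of each gene. Alternatives were RLE size factors, total counts, no filter, DESeq2 1.42.0, GC and length corrections, 1 fit of all 25 libraries, and each library left out. The microglial and liver covariates were chosen after seeing the data. Each library total, 17800113 to 31261121 counts, limits the precision of low members. The code was tested on simulated data.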

Additional observations from a re-analysis of the deposited data

Results flagged for a closer look

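In 25 quantities (23 members, their summed level and their median level relative to 2 months) at 5 ages, 14 of 125 groups of 5 libraries had 1 library set apart from the other 4, that is with a gap to its nearest neighbour above 0.71 of the range of the group. Chance gives about 1 in 20 groups. The quantities share libraries, and the summed and median levels are made from members. The groups are thus not independent, and the count of 14 cannot be tested against that rate. At 30 months replicate 5 was high in Rpl37 (26.8 CPM, others 19.9 to 21.2) and Rpl39 (11.7, others 7.03 to 8.34). The same library was high in Rps15 (164 CPM, others 108 to 121), Rps21 (117, others 57.0 to 73.2) and in the sum of the members (3077 CPM, others 2418 to 2507).

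Replicate 1 of 30 months was high in Rpl27a (22.9 CPM, others 13.9 to 14.7), Rpl6 (20.9, others 16.7 to 17.5) and Rpl7 (46.9, others 12.4 to 19.4). Replicate 1 of 2 months was high in Rplp0 (63.5 CPM, others 59.5 to 60.1). At 9 months Rpl7 was low in replicate 3 (48.1 CPM, others 50.2 to 51.0) and Rpl7l1 in replicate 4 (24.8, others 26.9 to 27.4). At 15 months Rpl27a was high in replicate 1 (29.2 CPM, others 26.2 to 27.0), Rplp1 in replicate 3 (93.9, others 83.1 to 85.4) and Rps25 in replicate 5 (35.6, others 33.0 to 33.5). What set these libraries apart was not tested.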

How the results depend on the processing

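No named member turned direction, under any alternative run, in a comparison it was named for. RLE size factors, total counts, DESeq2 and the GC correction kept each count of members past the test within 1.5 times, although total counts ended 3 named calls and the GC correction 5. A count can stay while its members change: at 15 against 2 months the 2 members past the test with the GC correction were not those of the main fit. With all 25 libraries in 1 fit the counts were 0 at 9 against 2 months, 0 at 15 against 2, 5 at 24 against 2, 0 at 15 against 9, 1 at 24 against 15 and 6 for the trend. Without a filter 1 member passed at 15 against 2 months. With the microglial covariate 1 passed at 15 against 2 months, 4 at 24 against 2, 10 at 24 against 15 and 0 for the trend, and with the liver covariate 11 at 24 against 2 months, 7 at 15 against 9 and 5 for the trend. Without replicates 2 to 5 of 30 months 4 passed at 30 against 2 months and 9 at 30 against 24. Leaving out 1 library at a time gave 6 to 9 at 9 against 2 months, 1 to 5 at 15 against 2, 15 to 22 at 24 against 2, 6 to 14 at 15 against 9, 15 to 20 at 24 against 15, 10 to 21 for the trend, 31 to 42 at 30 against 2 and 28 to 36 at 30 against 24. Paralog ratios past the test ranged over 0 to 3, with 3 without replicate 1 of 30 months. The causes were not tested, apart from the fewer libraries of some alternatives. No paired analysis was possible because replicate numbers follow accession order and pair no animals.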
